A study of Homo sapiens with 6 samples.

Results

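HNRNPD, ELAVL1, ZFP36, ZFP36L1, ZFP36L2, KHSRP, TIA1 and TIAL1 encode proteins that bind AU-rich elements and set how long messenger RNAs last or how well they are translated. These 8 genes were taken by name from a table of 58735 genes. RNA of the human colorectal carcinoma cell line RKO was sequenced in 6 libraries, 3 from controls (Vector, labelled negative control) and 3 from cells overexpressing the long noncoding RNA LOC101927668 (LOC_OE). The LOC_OE line was made by lentiviral insertion of the transcript and puromycin selection, so that it is a stable line with added copies and not a change at the native gene. The sources used here do not say whether the 3 libraries of a group came from separate cultures, so p-values measure the spread between these libraries, which may be technical. The values are FPKM, the fragments on a gene scaled by the length of its exons and by a size per library. That size already carried the median-of-ratios size factor, so levels may be compared between libraries. Comparison between genes is rougher, because the length is that of all annotated exons merged and not of the transcripts in use. They measure RNA only, and in bulk RNA fewer cells of a type and less RNA per cell cannot be told apart.

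AU-rich elements are runs of the pentamer AUUUA, often in U-rich surroundings, in the 3′ untranslated regions (3′ UTRs) of short-lived messages such as those of cytokines and immediate early genes. The ZFP36 family recruits the CCR4-NOT deadenylase to them, KHSRP brings the exosome and deadenylases, TIA1 and TIAL1 silence translation, and ELAVL1 (HuR) stabilizes the message. HNRNPD (AUF1) mostly promotes decay, although it can also stabilize a message, and the study followed it as a partner of LOC101927668 in cell lines other than RKO.

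The gene of the overexpressed RNA holds AU-rich letters itself. In the cloned transcript, whose own sequence was not analysed here, the study predicted hnRNPD sites. It also reported, from RNA pull-down, that hnRNPD bound the fragment that holds them. A stretch of 40 bases of transcript ENST00000437191.5 of that gene (ENSG00000243004, exon on chr7:19968285-19968324, minus strand, GRCh38) is shown. It holds the AU-rich hexamers TATAAA (bases 292 to 297) and TTTTAA (bases 306 to 311). Among the annotated transcripts it alone holds them at the base numbers of the sites predicted in the cloned RNA, and it was chosen for that. The letters at the study's own sites were not read, so whether these hexamers are those sites was not tested. The transcript shown has 571 bases and is not the one that GENCODE pairs with the RefSeq entry of the cloned RNA. That one, ENST00000435968.5, has 551 bases and holds the hexamers from bases 240 and 254. By the study's numbering the cloned RNA is longer than every annotated transcript of the gene, of which the longest has 804 bases. Both hexamers were in 5 of the 8 annotated transcripts of the gene, and in 5.35% of 5158 lincRNA and antisense transcripts within 10% of the length of the one shown (15.3% held the first and 25.6% the second). The hexamers were picked for this gene, so these shares describe the letters and are no test of enrichment. The capitals mark the hexamers, which were searched on the transcript's strand only.
LOC101927668: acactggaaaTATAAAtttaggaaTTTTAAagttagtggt

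The messages of the RNA-binding proteins themselves were also searched for the motifs of AU-rich elements. In the 3′ UTR of 1 GENCODE version 29 transcript per gene, searched on the transcript's strand with overlapping matches counted, the pentamer ATTTA was found in 7 of the 8 genes and the nonamer TTATTTATT, which contains the pentamer, in 4. Of the 11168 tested genes with a 3′ UTR, 69.4% held the pentamer and 8.46% the nonamer. ELAVL1 and TIA1 each had 13 pentamers, ZFP36L1 had 8, ZFP36 and ZFP36L2 had 5 each, HNRNPD had 2, TIAL1 had 1 and KHSRP had 0. A match is a description of the letters and not a shown binding site. One site of 28 bases is given per gene that has one, with the nonamer, or where there was none a pair of overlapping pentamers or a single pentamer, in capitals. RBM47 is added because the study followed its message as one bound by hnRNPD, and FOS, CXCL8 and TNFAIP3 because their nonamer-bearing messages appear among the changed genes described later.
HNRNPD: tagccattaagATTTAtatgaatatttt
ELAVL1: tttatgtatTTATTTATTgaagtgtgaa
ZFP36: atgacgactTTATTTATTctaatatgat
ZFP36L1: actgttggaTTATTTATTttagaaattc
ZFP36L2: ctatttaacTTATTTATTatcttgtgaa
TIA1: atacaatgtATTTATTTAaaagattcat
TIAL1: aaaatgaaaatATTTAttttaaaaattg
RBM47: gtaagcaatATTTATTTAactattctat
FOS: gtttttaatTTATTTATTaagatggatt
CXCL8: tgtaaagtaTTATTTATTtgaatctaca
TNFAIP3: taattcactTTATTTATTttattacaaa

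On GRCh38 these 3′ UTR sites lie at chr4:82353569-82353596 (HNRNPD), chr19:7961828-7961855 (ELAVL1), chr19:39409197-39409224 (ZFP36), chr14:68788077-68788104 (ZFP36L1), chr2:43223448-43223475 (ZFP36L2), chr2:70212588-70212615 (TIA1) and chr10:119575555-119575582 (TIAL1). The sites of the other genes lie at chr4:40424050-40424077 (RBM47), chr14:75282061-75282088 (FOS), chr4:73742665-73742692 (CXCL8) and chr6:137882299-137882326 (TNFAIP3). The minus strand is read for HNRNPD, ELAVL1, ZFP36L1, ZFP36L2, TIA1, TIAL1 and RBM47, and the plus strand for the rest.

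The libraries held 15008842 to 18410231 reads on genes. The overexpressed RNA was counted 231, 270 and 276 times in LOC_OE libraries against 1, 1 and 0 times in the controls, as labelled. LOC_OE replicate 1 stood apart: its correlation with the other LOC_OE libraries over tested genes (Pearson's r of log2(FPKM + 1), across genes, which are not independent) was 0.967 and 0.962, against 0.982 between those 2 and 0.982 to 0.983 between the Vector libraries. Results are therefore given with and without it. Of 10 colon epithelium markers, 4 were expressed, CDH1 and CEACAM5 were listed at 0 in every library, and the summed level of the list was 39.3 to 41.5 FPKM in Vector and 48.4 to 89.6 FPKM in LOC_OE libraries, or at most 48.9 FPKM without LOC_OE replicate 1; KRT18 was at 67.5 FPKM in that library against 25.3 and 25.1 in the other LOC_OE libraries. Every fibroblast, immune and endothelial marker was below 0.5 FPKM in every library. The part of the epithelial markers in the results was not tested.

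In control cells the 8 genes spanned a wide range of levels. ZFP36L1 was the most abundant at 142 ± 4.85 FPKM (mean ± SD, n = 3, as for the values that follow), and KHSRP came next at 87.3 ± 1.88. HNRNPD was at 31.3 ± 0.753 and ELAVL1 at 22.8 ± 1.69. The lower levels were those of ZFP36 (13.8 ± 0.348), TIA1 (11.7 ± 1.32), TIAL1 (11.0 ± 0.702) and ZFP36L2 (8.93 ± 0.811). Along this order the ranges of the 3 libraries overlapped for TIA1 and TIAL1 only. In LOC_OE cells the ranges of ZFP36L1 and KHSRP, of HNRNPD and ELAVL1, and of ZFP36, TIA1, TIAL1 and ZFP36L2 overlapped. All 8 genes passed the filter on low values, with 399 to 14274 reads each per library.

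**Figure D1:**
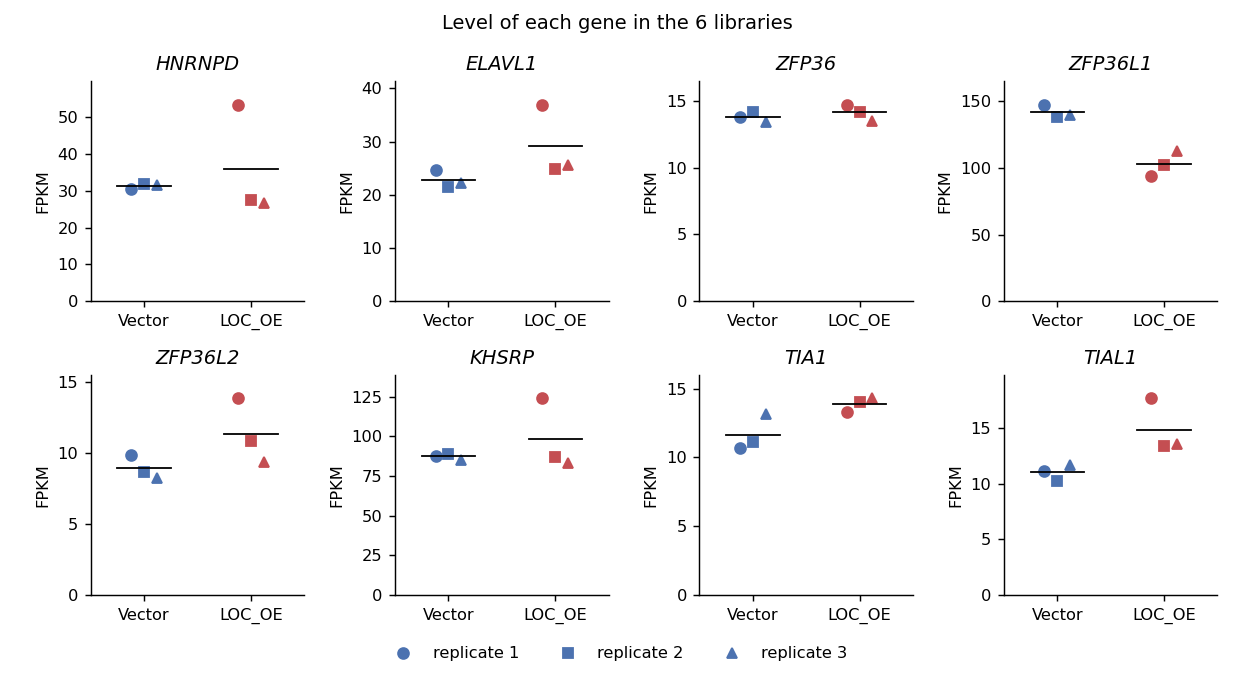
FPKM of the 8 genes (vertical axes, each from 0) in Vector and LOC_OE libraries; points are libraries, their shape gives the replicate and the line is the mean of 3. ZFP36L1 was lower in every LOC_OE library, and LOC_OE replicate 1 was the highest library for HNRNPD, ELAVL1, ZFP36, ZFP36L2, KHSRP and TIAL1.

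Of the 8 genes, 1 passed the test between LOC_OE and Vector cells (adjusted p under 0.05), and it was lower: ZFP36L1. Among the 16061 genes tested 20.4% passed, 10.7% higher and 9.74% lower in LOC_OE cells. No gene of the 8 passed as higher, while at an unadjusted p under 0.05 there were 2 higher and 1 lower, and limma voom on the reads behind the FPKM gave 0 higher and 1 lower. The median log2 fold change of the 8 was 0.19 against 0.02 for all genes tested. The groups did not overlap in 4 of the 8 genes, ELAVL1, ZFP36L1, TIA1 and TIAL1, against 45.3% of the genes tested. Without LOC_OE replicate 1, 3 of the 8 genes passed, TIAL1 higher and HNRNPD and ZFP36L1 lower, where 35.5% of all genes passed, 19.4% higher and 16.1% lower. The median of the 8 was then 0.07.

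HNRNPD (ENSG00000138668, chr4:82352498-82374503, minus strand) was at 30.5, 31.8 and 31.7 FPKM in the Vector libraries and at 53.4, 27.7 and 26.7 FPKM in LOC_OE replicates 1, 2 and 3. One LOC_OE library lay far above the control range and the others below it, so the groups overlapped. Over all libraries the log2 fold change was 0.12 ± 0.26 (SE), with a 95% confidence interval of -0.50 to 0.74 and an adjusted p of 0.775. Without LOC_OE replicate 1 HNRNPD was lower by 0.20 on the log2 scale (SE 0.046, limma adjusted p = 0.0214), with an interval of -0.31 to -0.09. That fit rests on LOC_OE replicates 2 and 3 alone. Replicate 1 was singled out from these same data, so this p and interval leave out spread that was seen. The sign of HNRNPD was also negative with all libraries after rescaling to the same sum of FPKM (-0.14), quantile normalization (-0.13) or array weights (-0.17). Rescaling to the same sum moved the median of all genes tested from 0.02 to -0.18, which is below the HNRNPD value. The adjusted p of HNRNPD over the alternatives other than leaving out a library was 0.126 to 0.819.

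LOC_OE replicate 1 was 0.95 higher in HNRNPD than the mean of LOC_OE replicates 2 and 3, on the scale of log2(FPKM + 1). For all genes tested the 10th and 90th percentiles of this difference were -0.53 and 0.60, and 345 genes (2.15%) were at least as high as HNRNPD. Among the 8 genes it was 0.53 for ELAVL1 and KHSRP, 0.42 for ZFP36L2 and 0.37 for TIAL1. It was near 0 for ZFP36 (0.08) and TIA1 (-0.09), and -0.19 for ZFP36L1. HNRNPD had the largest of these differences among the 8 genes.

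The genes whose levels followed HNRNPD most closely over the 6 libraries, among 4956 others with a mean of at least 10 FPKM, were DLGAP5, OAS3, USF1, SF3A1 and PTPA. DLGAP5 is a mitotic spindle protein, OAS3 an interferon-induced enzyme, USF1 a transcription factor, SF3A1 a splicing factor and PTPA an activator of protein phosphatase 2A. Pearson's r of log2(FPKM + 1) was 1.00 for DLGAP5, 0.997 for OAS3, 0.996 for USF1 and 0.994 for SF3A1 and PTPA. DLGAP5 was at 10.6, 11.2 and 11.2 FPKM in Vector and at 20.4, 9.44 and 9.21 FPKM in LOC_OE libraries, so it shared the high LOC_OE replicate 1. Without that library r was 0.997 for DLGAP5 and 0.923 to 0.965 for the other 4. These correlations are given as a description, and the points share 1 high library.

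HNRNPDL, the paralogue of HNRNPD that lies 48061 bases away on the same strand, was looked at after its values were seen. It was at 32.4, 31.1 and 31.6 FPKM in Vector and at 71.5, 39.8 and 37.8 FPKM in LOC_OE libraries, above the control range in all 3. Its log2 fold change was 0.57 ± 0.24 (adjusted p = 0.136), and without LOC_OE replicate 1 it was 0.28 (adjusted p = 0.00737). HNRNPD and HNRNPDL shared the high replicate 1 but lay on opposite sides of the controls in LOC_OE replicates 2 and 3. The antisense gene AC124016.1, which overlaps HNRNPD, reached at most 0.824 FPKM, and the processed copies HNRNPDP1 and HNRNPDP2 were listed at 0.

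ELAVL1 (ENSG00000066044, chr19:7958579-8005659, minus strand), which stabilizes the messages it binds, was at 24.7, 21.5 and 22.2 FPKM in Vector and at 36.9, 24.8 and 25.6 FPKM in LOC_OE libraries. The groups did not overlap, although LOC_OE replicate 2 exceeded the highest control by little. The log2 fold change was 0.32 ± 0.16 (adjusted p = 0.206), and 0.14 without LOC_OE replicate 1 (adjusted p = 0.163). It passed under none of the alternatives tried, where the adjusted p was 0.0987 to 0.675 with all libraries and 0.163 to 0.418 with 1 left out.

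The balance of HNRNPD to ELAVL1, a decay factor against a stabilizer, was 1.23, 1.48 and 1.42 in Vector and 1.45, 1.11 and 1.04 in LOC_OE replicates 1 to 3, as a ratio of FPKM. LOC_OE replicates 2 and 3 were below every control library and replicate 1 was within the control range. The mean log2 ratio was 0.46 ± 0.14 in Vector and 0.25 ± 0.25 in LOC_OE libraries (SD, n = 3). The difference of -0.21 did not pass (two-sided exact permutation test, p = 0.30), and 3 libraries against 3 cannot give a p below 0.10. Since both genes come from the same library, the ratio does not depend on a scaling factor per library.

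**Figure D2:**
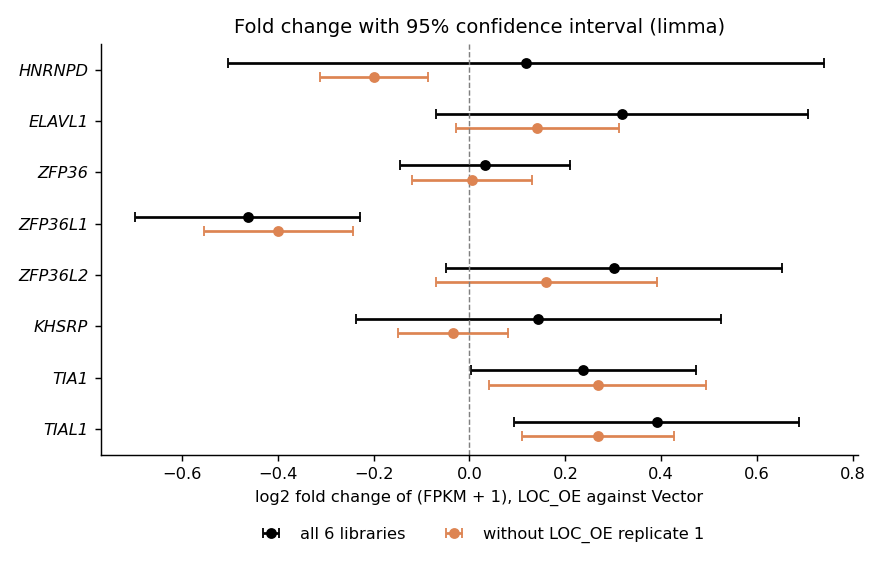
Log2 fold change of (FPKM + 1) between LOC_OE and Vector cells (horizontal axis) for the 8 genes, with 95% confidence intervals from limma; black uses all 6 libraries and orange leaves out LOC_OE replicate 1. ZFP36L1 lies below 0 in both, HNRNPD moves from 0.12 to -0.20, and the interval of HNRNPD is the widest with all libraries.

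ZFP36L1 (ENSG00000185650, chr14:68787660-68796253, minus strand), a zinc finger protein that brings deadenylation to AU-rich messages, was at 147, 138 and 140 FPKM in Vector and at 93.9, 102 and 113 FPKM in LOC_OE libraries. Every LOC_OE library was below every control. ZFP36L1 fell by 0.46 ± 0.10 (SE) on the log2 scale, to 0.726 of the control level (adjusted p = 0.0237), and by 0.40 without LOC_OE replicate 1 (adjusted p = 0.0064). Leaving out each library in turn gave log2 fold changes between -0.53 and -0.40. The adjusted p was over 0.05 without Vector replicate 1 (0.0903), Vector replicate 2 (0.0981), Vector replicate 3 (0.0920) or LOC_OE replicate 2 (0.0727), fits in which fewer genes passed overall as well. The change was smaller than the fold of 1.5 that was tried as a further limit.

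The other members of that family moved differently. ZFP36 (tristetraprolin, ENSG00000128016, chr19:39406813-39409412, plus strand) was at 13.8, 14.1 and 13.4 FPKM in Vector and at 14.7, 14.2 and 13.5 FPKM in LOC_OE libraries. The groups overlapped nearly whole, and the log2 fold change was 0.03 with an interval of -0.14 to 0.21 (adjusted p = 0.783); it was negative after rescaling to the same sum of FPKM (-0.21) or quantile normalization (-0.09). ZFP36L2 (ENSG00000152518, chr2:43222402-43226609, minus strand) was at 9.83, 8.67 and 8.28 FPKM in Vector and at 13.8, 10.8 and 9.37 FPKM in LOC_OE libraries. Its log2 fold change was 0.30 ± 0.15 (adjusted p = 0.189), and it passed with array weights only (adjusted p = 0.0254) of the alternatives, which ran up to 0.680.

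Because ZFP36L1 was the main member of its family in these cells, the summed level of ZFP36, ZFP36L1 and ZFP36L2 followed it. The sum was 171, 161 and 162 FPKM in Vector and 122, 127 and 136 FPKM in LOC_OE libraries, with no overlap. ZFP36L1 made up 86.2, 85.9 and 86.6% of it in Vector and 76.7, 80.3 and 83.1% in LOC_OE libraries. No test was run on these sums.

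KHSRP (ENSG00000088247, chr19:6413348-6424794, minus strand) was at 87.4, 89.0 and 85.3 FPKM in Vector and at 124, 86.9 and 83.4 FPKM in LOC_OE libraries. As with HNRNPD, replicate 1 alone lay above the controls. The log2 fold change was 0.14 ± 0.16 (adjusted p = 0.553); it was -0.03 without LOC_OE replicate 1, -0.12 after rescaling to the same sum, -0.16 after quantile normalization and -0.01 with array weights. The adjusted p over those and the other alternatives with all libraries was 0.160 to 0.929. The processed copy KHSRPP1 was at most at 0.423 FPKM.

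TIA1 (ENSG00000116001, chr2:70209444-70248660, minus strand) and TIAL1 (ENSG00000151923, chr10:119571802-119597029, minus strand) encode related proteins of stress granules. TIA1 was at 10.7, 11.1 and 13.2 FPKM in Vector and at 13.3, 14.1 and 14.3 FPKM in LOC_OE libraries, and TIAL1 was at 11.1, 10.3 and 11.7 FPKM against 17.6, 13.4 and 13.5 FPKM. Both were higher in every LOC_OE library than in any control, for TIA1 by a narrow margin. The log2 fold change of TIAL1 was 0.39 ± 0.12 (adjusted p = 0.0699), the nearest to passing among the genes that did not; without LOC_OE replicate 1 it passed, at 0.27 (adjusted p = 0.0240). That of TIA1 was 0.24 ± 0.10 (adjusted p = 0.134), 0.27 without LOC_OE replicate 1 (adjusted p = 0.0689), and -0.005 after rescaling to the same sum of FPKM. Each passed with array weights (adjusted p = 0.0193 for TIA1 and 0.00774 for TIAL1), over alternatives with all libraries that ran up to 0.983 and 0.265. TIA1 shares bases with C2orf42 on the same strand, which was at most at 3.29 FPKM.

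Other proteins that bind AU-rich or related elements were counted in a list of 34 genes, of which 27 passed the filter. In LOC_OE cells 7 of them rose and 0 fell, and 20 did not pass by limma (25.9% higher, against 10.7% higher and 9.74% lower of all genes tested). At an unadjusted p under 0.05 there were 11 higher and 1 lower, and limma voom called 8 higher and 1 lower. Their median was 0.19 on the log2 scale. Leaving out LOC_OE replicate 1, 14 rose and 3 fell, 63.0% against 35.5% of all genes, and after rescaling to the same sum of FPKM or quantile normalization 4 rose and 1 fell. Without any 1 Vector library 1 gene passed, and without LOC_OE replicate 2 there were 4.

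The 5 largest increases among these were NCL, PABPC1, AUH, PCBP2 and HNRNPC. NCL (nucleolin), a nucleolar protein that also binds AU-rich messages, was at 101 ± 3.45 FPKM (mean ± SD, n = 3) in Vector and at 247, 180 and 167 FPKM in LOC_OE libraries (log2 fold change 0.95 ± 0.16, adjusted p = 0.0129). PABPC1, the poly(A)-binding protein of the cytoplasm, was at 453, 391 and 416 FPKM against 639, 910 and 883 FPKM (0.93, adjusted p = 0.0147). In NCL the highest LOC_OE library was replicate 1 and in PABPC1 it was the lowest. AUH, a mitochondrial hydratase first found as an AU-rich RNA binder, went from 5.52 ± 0.396 to 10.3 ± 0.570 FPKM (mean ± SD, n = 3; adjusted p = 0.00552). PCBP2, a poly(C)-binding protein, went from 15.6 ± 0.336 to 26.4 ± 3.87 FPKM (adjusted p = 0.0117), and HNRNPC, a nuclear binder of U-rich RNA, from 62.1 ± 0.761 to 97.0 ± 20.3 FPKM (adjusted p = 0.0333). Of the 6 fits that left out 1 library, AUH passed in all. NCL, PABPC1 and PCBP2 did not pass without Vector replicate 1, 2 or 3 (adjusted p up to 0.0693, 0.0783 and 0.0666), nor HNRNPC without these or LOC_OE replicate 2 (up to 0.122). With all libraries PABPC1 did not pass without the filter (0.0612), with the same sum of FPKM (0.0533) or with quantile normalization (log2 fold change 0.56, adjusted p = 0.125). HNRNPC did not pass without the filter (0.0669), and its log2 fold change was 0.36 with the same sum and 0.33 with quantile normalization, against 0.62. HNRNPA1 and KHDRBS1 were the remaining increases. PABPC1, HNRNPC, PCBP2 and HNRNPA1 have processed copies elsewhere in the genome with which reads can be shared, so their values are less certain.

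The machinery that carries out decay after these proteins bind was counted in a list of 53 genes of deadenylases, decapping factors, LSm proteins, the exosome and their partners, all of which passed the filter. In LOC_OE cells 17 rose and 1 fell, 32.1% and 1.89% of them against 10.7% and 9.74% of all genes, and the median log2 fold change was 0.20. The split depended on scaling, with 5 higher and 5 lower after rescaling to the same sum of FPKM, which moved the median of all genes from 0.02 to -0.18, and 12 higher and 3 lower after quantile normalization. Leaving out LOC_OE replicate 1, there were 20 higher and 3 lower, 43.4% in all against 35.5% of all genes. Without Vector replicate 1, 2 or 3 there were 2, 1 and 1 genes that passed, and without LOC_OE replicate 2 or 3 there were 9 and 11. Over all genes these fits called 371 to 2195, against 3277 with all libraries.

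The largest increases in that list were LSM3, LSM2 and LSM5, and EXOSC2 and EXOSC9, subunits of the RNA exosome. The LSm subunits named are shared by a cytoplasmic ring that promotes decapping and a nuclear ring that binds the U6 snRNA. LSM3 went from 8.49 ± 0.693 to 16.3 ± 4.77 FPKM (log2 fold change 0.83, adjusted p = 0.0290) and LSM2 from 32.3 ± 2.28 to 56.7 ± 15.3 FPKM (0.77, adjusted p = 0.0327). EXOSC2 went from 25.3 ± 0.821 to 44.2 ± 12.6 FPKM (0.75, adjusted p = 0.0371), LSM5 from 5.89 ± 0.0918 to 10.9 ± 3.60 FPKM (0.74, adjusted p = 0.0443) and EXOSC9 from 10.3 ± 0.214 to 18.0 ± 3.57 FPKM (0.73, adjusted p = 0.0173). In all 5 LOC_OE replicate 1 was the highest library, and each passed without it (log2 fold changes 0.51 to 0.61). None of the 5 passed without Vector replicate 1, 2 or 3, nor LSM2 and LSM5 without LOC_OE replicate 2 or EXOSC2 without LOC_OE replicate 3 (adjusted p up to 0.142). Without the filter on low values LSM2 (0.0687), LSM3 (0.0635), LSM5 (0.0944) and EXOSC2 (0.0767) did not pass. The 1 decrease was BTG2, an antiproliferative protein that binds the CCR4-NOT deadenylase, at 34.3, 31.1 and 29.6 FPKM in Vector and 7.16, 9.23 and 9.18 FPKM in LOC_OE libraries. BTG2 fell by 1.78 ± 0.12 on the log2 scale (adjusted p = 0.00242) and passed in all 6 fits that left out 1 library.

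**Figure D3:**
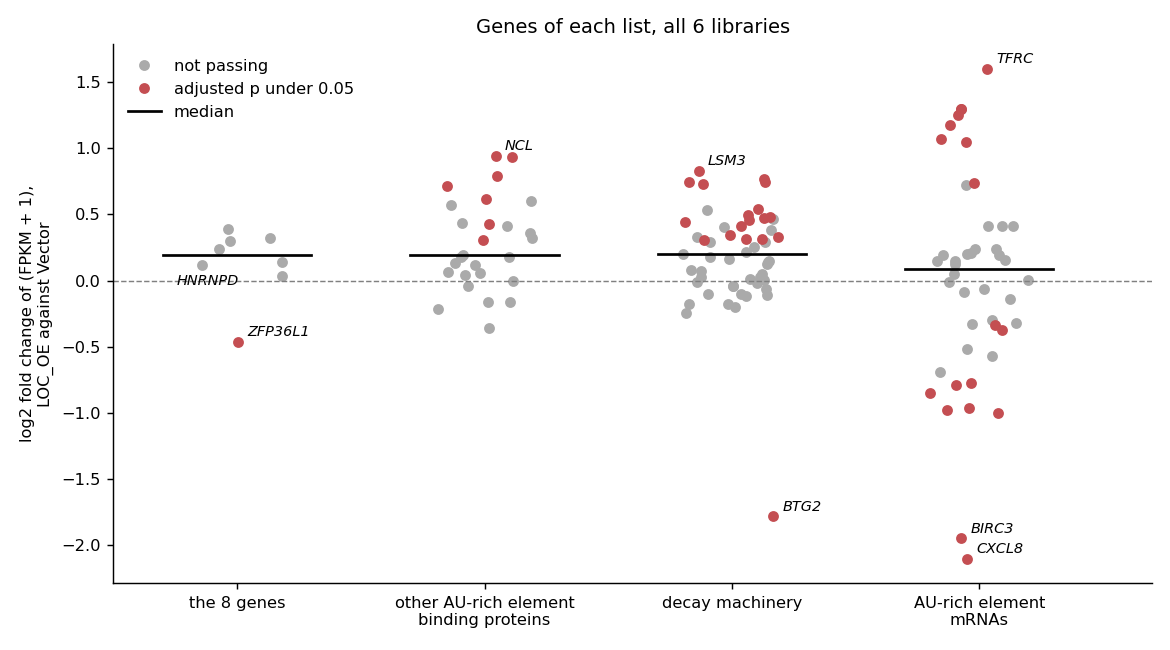
Log2 fold change of (FPKM + 1) between LOC_OE and Vector cells (vertical axis) for every tested gene of the 4 lists; points are genes, spread sideways for legibility, red marks an adjusted p under 0.05 and the line is the median of the list. The medians are 0.19, 0.19, 0.20 and 0.09 from left to right, and the AU-rich element mRNAs spread the widest, from CXCL8 (-2.11) to TFRC (1.60).

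Messages taken to carry AU-rich elements were counted in a list of 53 genes, of which 44 passed the filter. The list was written by hand with earlier results of these data known, and it includes RBM47. Not every gene of the list, nor every one that passed, held a pentamer in the transcript read. In LOC_OE cells 8 rose and 10 fell, 40.9% of those tested against 20.4% of all genes, and the median log2 fold change was 0.09. After rescaling to the same sum of FPKM 8 rose and 15 fell. Without LOC_OE replicate 1, 18 rose and 12 fell, 68.2% against 35.5% of all genes, and without Vector replicate 2 there were 4 and 5.

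Among the largest decreases were CXCL8, BIRC3, NFKBIA and TNFAIP3. CXCL8, a neutrophil-attracting chemokine and a classical AU-rich message, was at 5.04, 3.96 and 5.06 FPKM in Vector and at 0.110, 0.439 and 0.419 FPKM in LOC_OE libraries. BIRC3, an inhibitor of apoptosis, was at 8.98, 10.1 and 10.9 FPKM against 0.922, 2.36 and 2.54 FPKM. CXCL8 fell by 2.11 ± 0.15 (adjusted p = 0.00268) and BIRC3 by 1.95 ± 0.24 (adjusted p = 0.00698) on the scale of log2(FPKM + 1). Limma voom on the reads gave log2 fold changes of -4.02 for CXCL8 and -2.50 for BIRC3. CXCL8 had only 4, 16 and 14 reads in the LOC_OE libraries. NFKBIA, the inhibitor of NF-kB, was at 28.2, 27.1 and 24.5 FPKM in Vector and 13.7, 13.1 and 11.6 FPKM in LOC_OE libraries (adjusted p = 0.00459), and TNFAIP3, which also restrains that pathway, fell from 2.95 ± 0.178 to 0.999 ± 0.0908 FPKM (adjusted p = 0.00404). CXCL8, BIRC3, NFKBIA and TNFAIP3 passed in all 6 fits that left out 1 library. CXCL8, BIRC3 and TNFAIP3 hold 1 nonamer each, and NFKBIA holds 3 pentamers without a nonamer.

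The 5 largest increases were TFRC, PLAU, FOS, ODC1 and EGR1. TFRC, the transferrin receptor, was at 6.45, 6.28 and 6.56 FPKM in Vector and at 41.2, 15.7 and 15.4 FPKM in LOC_OE libraries (log2 fold change 1.60 ± 0.36, adjusted p = 0.0276, and 1.16 without LOC_OE replicate 1, adjusted p = 4.65e-04). PLAU, the urokinase plasminogen activator, was at 16.8, 17.0 and 16.0 FPKM against 35.5, 44.2 and 47.6 FPKM (2.45-fold in FPKM + 1, adjusted p = 0.00397). FOS, the immediate early gene on which AU-rich decay was much studied, was at 1.63, 1.66 and 1.71 FPKM against 5.90, 4.53 and 6.35 FPKM (2.45-fold in FPKM + 1, adjusted p = 0.00422). The added 1 FPKM shrinks the change of FOS more than that of PLAU. Limma voom on the reads gave log2 fold changes of 1.72 for FOS and 1.34 for PLAU. ODC1, the first enzyme of polyamine synthesis, rose from 101 ± 7.98 to 245 ± 53.4 FPKM (adjusted p = 0.00768), and EGR1, an immediate early transcription factor, from 40.1 ± 4.17 to 92.6 ± 16.1 FPKM (adjusted p = 0.00747). TFRC did not pass without Vector replicate 1, 2 or 3 (adjusted p up to 0.103) or without the filter (0.0646), nor ODC1 without Vector replicate 2 (0.0516). FOS holds 1 nonamer and 5 pentamers and moved up, whereas CXCL8 and BIRC3, with 1 nonamer and 9 and 12 pentamers, moved down. The transcript read for ODC1 held 0 pentamers.

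Across the transcriptome, genes were sorted by the number of nonamers in the 3′ UTR of the transcript read. Of 10223 tested genes without a nonamer 12.8% rose and 10.4% fell, of 736 with 1 nonamer 13.6% rose and 7.34% fell, and of 209 with 2 or more 11.0% rose and 10.5% fell. The median log2 fold changes were 0.05, 0.04 and 0.05. Without LOC_OE replicate 1 they were 0.02, 0.06 and 0.04. In that fit 2407 rose and 1938 fell of the 10223 genes without a nonamer. The counts were 205 and 105 of the 736 genes with 1 nonamer, and 58 and 33 of the 209 with 2 or more. Of all 11168 tested genes with a 3′ UTR, 2670 rose and 2076 fell. The 3′ UTRs of the 3 classes had median lengths of 981, 2745 and 3773 bases. These shares and counts are descriptions, and no test of the difference between classes was run.

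**Figure D4:**
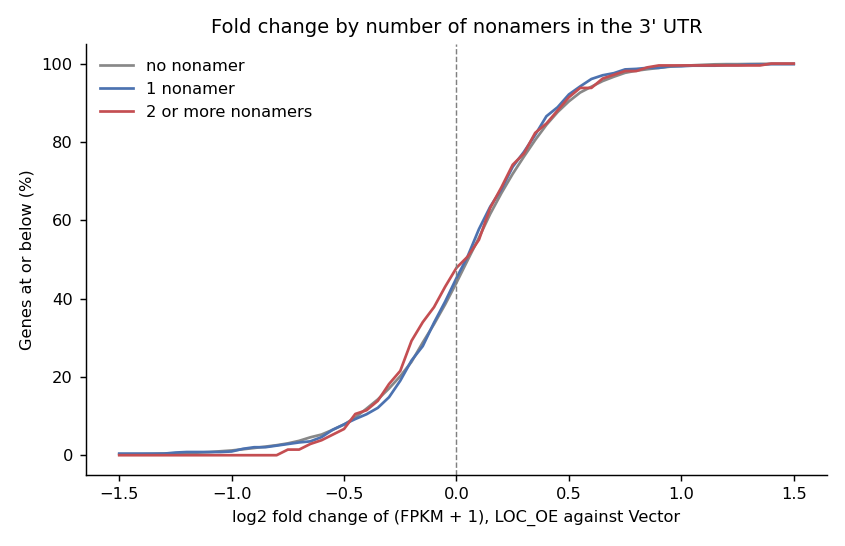
Share of genes (vertical axis, %) at or below each log2 fold change of (FPKM + 1) between LOC_OE and Vector cells (horizontal axis), for tested genes with 0, 1 or 2 or more copies of the nonamer in the 3′ UTR. The 3 curves lie close to each other, with medians of 0.05, 0.04 and 0.05.

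Kinases, phosphatases and other regulators of these proteins formed a list of 12 genes, all tested, of which 0 rose and 1 fell by limma, 8.33% against 20.4% of all genes. At an unadjusted p under 0.05 there were 1 higher and 1 lower, and limma voom called 0 higher and 1 lower. DUSP1, the phosphatase that switches off the p38 kinase upstream of ZFP36 phosphorylation, and itself an AU-rich message with 2 nonamers, was at 12.7, 13.3 and 12.5 FPKM in Vector and at 8.14, 6.52 and 6.44 FPKM in LOC_OE libraries. It fell by 0.79 ± 0.10 on the log2 scale (adjusted p = 0.00775), and by 0.89 without LOC_OE replicate 1, and did not pass without Vector replicate 2 (adjusted p = 0.0538). Leaving out LOC_OE replicate 1, 2 regulators rose and 2 fell, 33.3% against 35.5% of all genes.

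RBM47, whose 3′ UTR holds the overlapping pentamers shown above, was below the filter. Its reads numbered 13, 22 and 29 in the controls against 4, 6 and 3 under overexpression, or 0.0811, 0.139 and 0.182 FPKM against 0.0292, 0.0438 and 0.0239 FPKM. The groups did not overlap, and in a fit without the filter the log2 fold change was -0.13 (adjusted p = 0.112), on a scale whose added 1 FPKM shrinks differences at such low levels. Limma voom on the reads gave -1.88 ± 0.53 (SE, adjusted p = 0.0425), from 3 to 29 reads per library.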

How the data were processed

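The authors sequenced paired ends of libraries made with a NEBNext Ultra kit on an Illumina NovaSeq instrument, and the submitters' processing notes name HISAT2 2.0.4, StringTie 1.3.0 and the build hg38. The authors deposited 1 table of FPKM for 58735 genes in 6 libraries, and all identifiers matched GENCODE version 29. Multiplied by merged exon length, 100% of the FPKM fell on whole steps of a size fixed per library (tolerance 0.05), which gave the reads behind each and showed that the authors' divisor already held the median-of-ratios size factor. Scaling by that factor again could therefore change nothing. These totalled 15008842 to 18410231 per library and set counting error only. The use of strand in counting is not given in the sources used here, so overlapping, antisense and near-identical genes can share reads.

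Genes reaching 0.5 FPKM in at least 3 libraries were fitted on the log2(FPKM + 1) scale by limma 3.58.1 (R 4.3.3) with its trended variance prior. A fold change on this scale understates the change of low genes. P-values were adjusted over all 16061 genes by the Benjamini-Hochberg method, and an adjusted p under 0.05 passed. The ratio of HNRNPD to ELAVL1 was tested by an exact permutation of libraries. For each gene the 3′ UTR of 1 basic protein-coding transcript of GENCODE version 29 (the best APPRIS rank, then the longest 3′ UTR) was read, and sequences were taken from GENCODE on GRCh38. Other transcripts can have longer 3′ UTRs. The genes and lists were chosen with earlier results of these data known. Named are the 8 genes, LOC101927668, RBM47, of each list the 5 largest increases and decreases that passed, apart from 1 gene that is not reported here, and the 5 genes most correlated with HNRNPD; other genes are named beside these as neighbours, copies or the rest of a count. Alternatives were a pseudocount of 0.1, no filter, a mean FPKM of at least 1, quantile and median-of-ratios scaling, the same sum of FPKM, no variance trend, array weights, a replicate block, leaving out each library, an unadjusted p, and a fold change of at least 1.5. Limma voom on reads recovered for 28742 genes was added after seeing the data. Of these steps the filter and the main limma fit were tested on simulated data, in which no library was made to stand apart. Figures were drawn with matplotlib 3.10.9.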

Additional observations from a re-analysis of the deposited data

How the results depend on the processing

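Over all genes 3277 passed, against 8086 with array weights, 2065 with a replicate block, 5855 at an unadjusted p under 0.05, 1639 with a fold change of at least 1.5 as well, and 371 to 5703 with 1 library left out. Of the 8 genes 1 passed, against 4 with array weights, 0 with a replicate block, 3 unadjusted, 0 with the fold change and 0 to 3 with 1 library left out. Of the decay machinery 18 passed, against 9 without the filter, 10 with the same sum of FPKM, 29 with array weights, 11 with a replicate block, 6 with the fold change and 1 to 23 with 1 library left out. Of the other AU-rich element binding proteins 7 passed, against 4 without the filter, 17 with array weights, 12 unadjusted and 1 to 17 with 1 library left out. Of the AU-rich element mRNAs 18 passed, against 31 with array weights and 9 to 30 with 1 library left out.

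The log2 fold change of HNRNPD turned from 0.12 to -0.14 with the same sum of FPKM, -0.13 with quantile normalization and -0.17 with array weights, and was -0.20 to 0.29 with 1 library left out. That of ZFP36 turned to -0.21 with the same sum and negative with quantile normalization (-0.088). That of KHSRP turned to -0.12, -0.16 and -0.0069 under the same sum, quantile normalization and array weights, and was -0.035 to 0.25 with 1 library left out, negative only without LOC_OE replicate 1. That of TIA1 turned to -0.0048 with the same sum. The difference in log2 ratio of HNRNPD to ELAVL1 kept its sign, at -0.26 with quantile normalization and -0.35 to -0.12 with 1 library left out. The causes of these changes were not tested, other than that fits with a library left out hold fewer samples.

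The replicate numbers do not pair the libraries: the correlations of same-numbered deviations from the group means were 0.11, -0.03 and 0.12. With a replicate block ZFP36L1 had an adjusted p of 0.0528, and no other call among the 8 genes changed; among the other named genes LSM3 (0.0502) and LSM5 (0.0578) did not pass.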
